A study of Mus musculus with 33 samples.

Results

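Tissue of the MNTB (medial nucleus of the trapezoid body) was compared between postnatal day 3 (P3) and postnatal day 1 (P1), a step of 2 days. The comparison was taken from sample titles and ages, with the litter number in the titles as a block, and it covered all 16686 probe sets of the array. It rested on 10 of the 33 arrays of the study: 5 wild-type P3 mice and 5 wild-type P1 mice, numbered litter 1 to litter 5 at each age. The remaining arrays, from mice of the same kind at P0, P2 and P6 (5 each) and at P4 and P14 (4 each), entered the fit and served to follow the same genes in other mice. The labels call the animals FVB, but their strain tag reads FVN, and no mouse was treated. Each array held 1 mouse, whose MNTB was lifted from a live slice with a needle, a step that enriches the nucleus but isolates no cell type. In such bulk tissue fewer cells of a type and less RNA per cell cannot be told apart.

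Principal neurons of the MNTB are inhibitory cells that release glycine and relay sound timing. Each is contacted by a calyx of Held, a giant glutamatergic terminal from the cochlear nucleus, which in rodents grows from small competing contacts to a single cup-shaped ending during the first days of life. Astrocytes and oligodendrocyte precursors surround the growing terminal, and the trapezoid body axons that carry it are myelinated later. Since the calyx comes from neurons of the cochlear nucleus, RNA of MNTB tissue is no direct measure of the genes at work in it.

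Among the largest differences between P3 and P1 were increases in genes of neurons and glia. Calcium-binding proteins of principal neurons, Pvalb and Calb1, rose 3.87-fold and 3.18-fold, and genes of astrocytes (S100b, Htra1, Gpr37l1, Apoe) and of the oligodendrocyte lineage (Mbp, Enpp6, Bcas1) rose 2.24-fold to 3.07-fold. Among the largest decreases were those of Tnc, a matrix glycoprotein of immature glia, which was 3.93-fold lower at P3 than at P1, Slc17a8, the vesicular glutamate transporter VGLUT3, which was 3.74-fold lower, and Dcx, a microtubule protein of young neurons, which was 2.38-fold lower. Hardly any gene of the neuronal channel, receptor and presynaptic lists passed the test over these 2 days.

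Start regions are shown for 4 of the most changed genes, a riser of principal neurons (Pvalb), a riser of astrocytes (S100b) and the 2 deepest falls (Tnc and Slc17a8). RefSeq's promoter table for GRCm38.p6 gives 250 bases before to 50 bases after a gene's start. Pvalb lies at chr15:78206351-78206650, minus strand, S100b at chr10:76253586-76253885, plus strand, Tnc at chr4:64046966-64047265, minus strand and Slc17a8 at chr10:89621200-89621499, minus strand. Each is written from 5′ to 3′, and where the table lists several starts, the first is shown. Capitals mark any match to TATAAA, to CAGCTG (an E-box, which reads the same on both strands) or to ACAAAG (a SOX-type motif), searched on both strands.
Pvalb: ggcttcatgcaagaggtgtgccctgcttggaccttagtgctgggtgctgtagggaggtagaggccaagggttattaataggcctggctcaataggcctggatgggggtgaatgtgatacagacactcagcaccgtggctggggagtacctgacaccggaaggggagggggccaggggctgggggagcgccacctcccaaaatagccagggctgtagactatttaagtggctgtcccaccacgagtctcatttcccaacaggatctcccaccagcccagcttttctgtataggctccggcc
S100b: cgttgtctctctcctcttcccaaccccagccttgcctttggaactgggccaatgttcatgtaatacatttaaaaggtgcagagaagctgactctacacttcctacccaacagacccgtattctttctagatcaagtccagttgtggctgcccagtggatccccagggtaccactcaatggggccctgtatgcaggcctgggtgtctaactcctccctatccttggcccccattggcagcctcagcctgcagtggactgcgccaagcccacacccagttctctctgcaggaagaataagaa
Tnc: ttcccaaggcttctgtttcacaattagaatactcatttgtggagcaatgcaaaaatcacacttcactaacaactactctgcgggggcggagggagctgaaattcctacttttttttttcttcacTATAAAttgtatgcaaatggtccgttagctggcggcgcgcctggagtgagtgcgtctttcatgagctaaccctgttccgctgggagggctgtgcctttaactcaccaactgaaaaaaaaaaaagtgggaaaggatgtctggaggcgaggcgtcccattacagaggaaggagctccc
Slc17a8: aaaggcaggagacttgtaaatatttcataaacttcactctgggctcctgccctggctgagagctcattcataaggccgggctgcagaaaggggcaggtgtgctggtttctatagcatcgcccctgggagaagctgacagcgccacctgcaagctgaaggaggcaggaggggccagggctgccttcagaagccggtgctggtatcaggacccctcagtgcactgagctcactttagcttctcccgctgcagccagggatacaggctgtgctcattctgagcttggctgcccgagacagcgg
The one match in these 4 windows was a TATAAA that begins at -126 from the Tnc start. Among the genes that rose, 78 of 105 had a window in the table, and 11.5% of these held TATAAA, 16.7% CAGCTG and 16.7% ACAAAG. Among the genes that fell, 77 of 93 had one, with 7.79%, 16.9% and 10.4%. The shares over all 11893 measured genes with a window were 11.6%, 15.6% and 16.1%. The median GC content was 58.7% for the genes that rose, 62.0% for those that fell and 58.3% for all measured genes.

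Values are log2 expression from RMA, a normalization that fits each probe set across arrays, so that a difference of 1 is 2-fold, and levels of different genes are not compared. A gene was called where the adjusted p of limma's moderated test, with the litter block, was under 0.05. Of all probe sets 211 (1.26%) were called, 112 higher at P3 (0.671%) and 99 lower (0.593%). Counted by gene, with 1 probe set for each of 14857 genes, 105 rose (0.707%) and 93 fell (0.626%). Among probe sets that rose the median change was 0.77 and the largest 2.05, with 32 of 112 at least 2-fold, while among those that fell the median was -0.59 and the largest -1.98, with 9 of 99 at least 2-fold. In 87 of those that rose and 50 of those that fell, the 5 P3 mice did not overlap the 5 P1 mice, against 397 of all probe sets (2.38%). Under the array median (about 4.95) changes may be compressed, which was not tested. The mean lay under it for 12 of those that rose at P3 and 30 at P1, and for 23 of those that fell at P3 and 9 at P1.

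The counts depended on the block and on single mice. Without the litter block 76 probe sets were higher and 43 lower, all of them among the calls above, and in a fit of the 10 arrays alone 24 were higher and 9 lower. Of the 55 called genes that the rule for named genes takes, 22 were called in that smaller fit, among them Pvalb, Calb1, S100b, Mbp, Bcas1, Apoe, Hapln4, Tnc, Slc17a8 and Vim, while Dcx, Chn2 and 31 others were not. Among these others were Ugt8a, Gpr17, Tcf7l2, Gria3, Cplx1, Sparc, Sema5a, Aldoc, Abhd3 and Pla2g7. Their adjusted p in that fit ran from 0.0663 to 0.217. The number of decreases was 240 without the P3 mouse of litter 4, whose array quality weight was the lowest of the 10 (0.352, where 1 is the average array). It was 59, 61, 49 and 38 without the P3 mouse of litter 1, 2, 3 or 5, and 39, 55 and 45 without the P1 mouse of litter 2, 3 or 5. Pairs of arrays correlated at 0.979 to 0.985 within P3 and at 0.972 to 0.990 within P1, and the P1 mouse of litter 4 stood farthest from its group, with a mean correlation of 0.975.

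Calcium-binding proteins led the principal neuron genes. Pvalb encodes parvalbumin, a fast calcium buffer, and measured 8.01, 7.79, 8.49, 8.74 and 8.78 in the P3 mice, against 6.40, 6.69, 6.60, 6.18 and 6.18 in the P1 mice, in order of litter from 1 to 5 as in all such lists here. Every P3 mouse lay above every P1 mouse, and the change was 1.95 ± 0.18, adjusted p = 1.93e-07 (SE from limma, as throughout). Calb1 encodes calbindin, another calcium buffer by which MNTB neurons are commonly marked. It measured 8.51, 8.82, 8.38, 8.93 and 8.76 in the P3 mice, against 6.85, 7.36, 6.78, 6.63 and 7.43 in the P1 mice, again without overlap (1.67 ± 0.17, adjusted p = 5.46e-07). Slc6a5 encodes GlyT2, the transporter that refills glycinergic terminals with glycine, and was bright at both ages. It measured 10.36, 10.78, 10.62, 10.39 and 10.41 in the P3 mice, against 10.18, 10.21, 10.30, 9.88 and 10.13 in the P1 mice, and the groups did not overlap (0.37 ± 0.08, adjusted p = 0.0225). Its call was lost without the litter block (adjusted p = 0.126) and on leaving out the mouse of P3 litter 2, 3 or 4 or P1 litter 2, 4 or 5 (adjusted p of 0.0504 to 0.0911).

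Pvalb, Calb1 and Slc6a5 lay above the array median in every P3 and P1 mouse. They were the 3 of 10 measured principal neuron and glycinergic genes that rose, and none fell. The list's median change was 0.13, beside -0.01 over all 14857 genes. Slc32a1, the vesicular transporter for glycine and GABA, changed by 0.24 ± 0.14, adjusted p = 0.563, and Kcnc1, a fast potassium channel of these neurons, by 0.07 ± 0.14, adjusted p = 0.903. The mean over the list ranged from 7.68 to 7.76 in the P3 mice and 7.18 to 7.44 in the P1 mice.

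Genes of the oligodendrocyte lineage rose in both of its lists. Mbp, the myelin basic protein that compacts myelin, measured 6.53, 6.59, 6.91, 6.40 and 6.62 in the P3 mice, against 4.89, 5.50, 4.76, 5.20 and 4.79 in the P1 mice (1.58 ± 0.13, adjusted p = 1.14e-07). No P3 mouse came down to the brightest P1 mouse. Bcas1, a protein of oligodendrocytes that are starting to myelinate, measured 7.84, 7.64, 7.75, 7.85 and 7.82 in the P3 mice, against 6.23, 6.59, 5.74, 6.41 and 6.50 in the P1 mice (1.49 ± 0.14, adjusted p = 2.04e-07), and the 5 P3 mice lay within 7.64 to 7.85. Enpp6, a choline phosphodiesterase of newly formed oligodendrocytes, measured 6.14, 5.05, 5.23, 5.85 and 5.27 in the P3 mice, against 3.93, 4.02, 4.05, 3.79 and 4.07 in the P1 mice (1.54 ± 0.22, adjusted p = 0.00015). It was below the array median in every P1 mouse and above it in every P3 mouse.

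Of the 15 measured genes of precursors and newly formed oligodendrocytes, 7 rose and none fell, and all 15 changes were positive, with a median of 0.54. Besides Enpp6 these were Gpr17, a receptor of cells leaving the precursor state (1.09 ± 0.22, adjusted p = 0.00729), Itpr2, an intracellular calcium channel (1.03 ± 0.11, adjusted p = 3.73e-06), Tcf7l2, a transcription factor of Wnt signalling (0.81 ± 0.14, adjusted p = 0.00227), and Sox6, Sox10 and Neu4 at 0.60, 0.54 and 0.44. Without the P3 mouse of litter 1, 4 of the 7 were called. Pdgfra and Cspg4, which mark precursors, changed by 0.57 ± 0.18, adjusted p = 0.14 and by 0.12 ± 0.12, adjusted p = 0.781. The mean over the list ranged from 5.59 to 5.87 in the P3 mice and 5.01 to 5.29 in the P1 mice.

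Of the 20 measured myelin genes 7 rose and none fell, with a median change of 0.33. After Mbp and Bcas1 came Cnp, a membrane-bound phosphodiesterase of myelin (1.19 ± 0.17, adjusted p = 0.00015), Ugt8a, the enzyme that makes the myelin lipid galactocerebroside (1.18 ± 0.20, adjusted p = 0.00128), Sirt2 (0.84), Mag and Fa2h (0.81). Mag, a glycoprotein of the innermost myelin wrap, measured 4.87, 4.59, 4.64, 4.58 and 4.94 in the P3 mice, against 3.72, 3.82, 3.85, 4.05 and 4.09 in the P1 mice (0.82 ± 0.16, adjusted p = 0.00641). Both means of Mag lay under the array median, where changes may be compressed. Mobp, Mog, Ermn and Mal, proteins of mature myelin, were not called, at 0.12, -0.11, 0.08 and 0.20. Their means at both ages lay under the array median too, so a small change could be missed. Of the 20 genes, 10 were that dim at both ages. The mean over the list ranged from 5.38 to 5.51 in the P3 mice and 4.88 to 5.07 in the P1 mice.

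Astrocyte genes were higher at P3 as well. S100b, a calcium-binding protein of astrocytes, measured 8.25, 7.88, 9.09, 8.40 and 8.41 in the P3 mice, against 6.32, 6.51, 7.37, 6.89 and 6.86 in the P1 mice (1.62 ± 0.17, adjusted p = 1.49e-06), and every P3 mouse was above every P1 mouse. Apoe, the lipid carrier of astrocytes, measured 10.96, 10.71, 10.82, 10.80 and 10.85 in the P3 mice, against 9.75, 9.65, 9.58, 9.54 and 9.82 in the P1 mice (1.16 ± 0.12, adjusted p = 5.46e-07). The 5 P3 mice lay between 10.71 and 10.96. Htra1, a secreted protease (1.46 ± 0.18, adjusted p = 9.52e-06), Gpr37l1, a receptor of maturing astrocytes (1.45 ± 0.13, adjusted p = 1.93e-07), and Clu, a secreted chaperone (0.98 ± 0.15, adjusted p = 0.000503), rose as well.

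In all, 9 of 22 measured astrocyte genes rose and none fell, with a median of 0.45. The remaining 4 that rose were Slc7a10 (0.71), Kcnj10, the potassium channel Kir4.1 that buffers potassium (0.59), Aldoc (0.46) and Cldn10 (0.46). Slc1a3, the glutamate transporter GLAST, changed by -0.03 ± 0.15, adjusted p = 0.974, and Gfap, an intermediate filament, by 0.22 ± 0.17, adjusted p = 0.681. The mean over the list ranged from 7.31 to 7.52 in the P3 mice and 6.70 to 6.95 in the P1 mice. Of 18 microglia genes Tyrobp (1.12 ± 0.24, adjusted p = 0.011) and Csf1r (0.52 ± 0.13, adjusted p = 0.0353) rose, which are an adaptor of immune receptors and the growth factor receptor on which microglia depend. The call of Tyrobp was lost without the litter block (adjusted p = 0.0501) and on leaving out the mouse of P3 litter 1 or P1 litter 5 (adjusted p of 0.0551 to 0.0608). That of Csf1r, dim at both ages, was lost without the litter block (adjusted p = 0.1) and on leaving out the mouse of P3 litter 1, 2 or 3 or P1 litter 1, 2, 3 or 5 (adjusted p of 0.0509 to 0.128). The median change of the microglia list was 0.19, and its mean ranged from 4.86 to 5.17 in the P3 mice and 4.62 to 4.84 in the P1 mice.

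**Figure D1:**
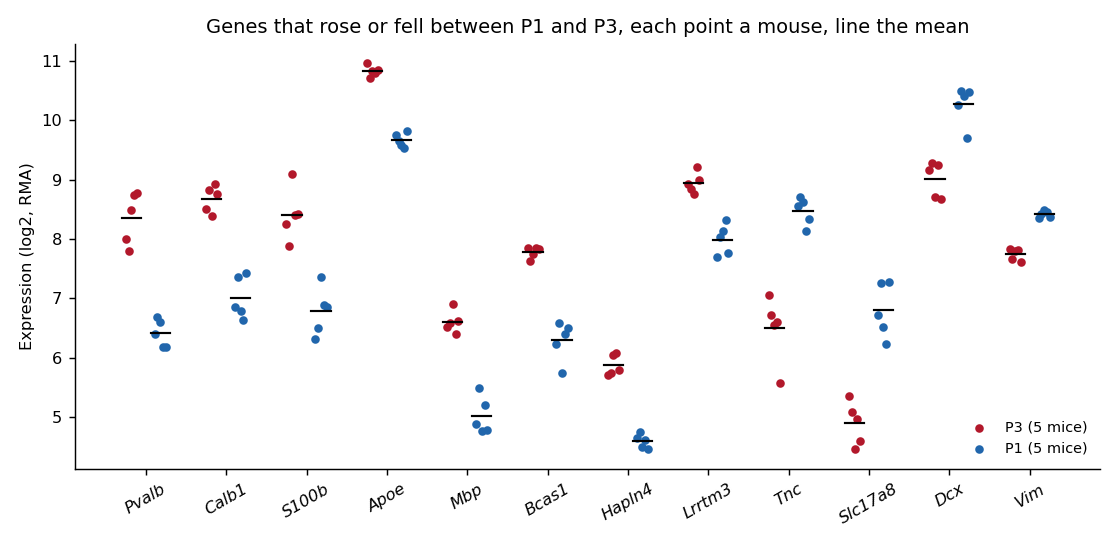
Log2 expression (vertical axis) of 12 genes in each mouse, with the 5 P3 mice (red) left of the 5 P1 mice (blue) and a line at each mean. Pvalb, Calb1, S100b, Apoe, Mbp, Bcas1, Hapln4 and Lrrtm3 were higher in every P3 mouse than in every P1 mouse, and Tnc, Slc17a8, Dcx and Vim were lower.

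Genes of immature cells were among the deepest falls. Tnc encodes tenascin-C, an extracellular matrix protein of radial glia and young astrocytes. It measured 7.05, 6.72, 6.55, 6.60 and 5.57 in the P3 mice, against 8.56, 8.71, 8.62, 8.13 and 8.34 in the P1 mice (-1.98 ± 0.18, adjusted p = 1.93e-07). Even the brightest P3 mouse was more than 1 log2 unit below the dimmest P1 mouse. Vim, the intermediate filament vimentin of glial progenitors, measured 7.84, 7.66, 7.80, 7.82 and 7.61 in the P3 mice, against 8.36, 8.43, 8.49, 8.45 and 8.36 in the P1 mice (-0.68 ± 0.10, adjusted p = 0.000119), with each group within a narrow band. These were the 2 of 10 radial glia and progenitor genes that fell, and none rose, with a list median of -0.05. Nes and Fabp7, which also mark progenitors, changed by -0.28 ± 0.13, adjusted p = 0.368 and by -0.03 ± 0.08, adjusted p = 0.937. The mean over the list ranged from 6.45 to 6.81 in the P3 mice and 6.89 to 7.03 in the P1 mice.

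Slc17a8 loads glutamate into vesicles, and in rodents VGLUT3 is known from young MNTB neurons before hearing, where it serves a transient release of glutamate. It measured 5.36, 5.09, 4.47, 4.98 and 4.61 in the P3 mice, against 6.73, 7.26, 6.52, 6.24 and 7.28 in the P1 mice (-1.90 ± 0.20, adjusted p = 1.49e-06). The P3 values lay on both sides of the array median, near which changes may be compressed. The transporters of mature glutamatergic terminals were not called. Slc17a6 (VGLUT2) changed by -0.63 ± 0.25, adjusted p = 0.272 and Slc17a7 (VGLUT1) by 0.18 ± 0.20, adjusted p = 0.808.

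Dcx, doublecortin, binds microtubules in migrating and extending neurons. It measured 9.16, 9.29, 8.71, 9.24 and 8.68 in the P3 mice, against 10.26, 10.49, 10.41, 9.71 and 10.47 in the P1 mice (-1.25 ± 0.15, adjusted p = 7.37e-06), and the dimmest P1 mouse, of litter 4, still lay above every P3 mouse. Elavl4, an RNA-binding protein of young neurons, changed by -0.42 ± 0.09, adjusted p = 0.0141. Its groups overlapped, and its call was lost without the litter block (adjusted p = 0.137) and on leaving out the mouse of P3 litter 3 or 5 or P1 litter 5 (adjusted p of 0.0633 to 0.0721). Of 21 genes of neurite growth and immature neurons these 2 fell, none rose and 1 change was positive, with a median of -0.23. Gap43, a growth cone protein, changed by -0.23 ± 0.09, adjusted p = 0.307. The glial lists were higher in the same P3 mice, in the ranges given above, and their part in these decreases was not tested.

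Cell cycle genes were mostly lower at P3, and few passed the test. Of 30 measured, 29 changes were negative, with a median of -0.32, and 2 genes were called lower. Top2a, the topoisomerase of dividing cells, changed by -0.69 ± 0.17, adjusted p = 0.0363, and Kif23, a motor of cell division, by -0.50 ± 0.13, adjusted p = 0.0399. The call of Top2a was lost without the litter block (adjusted p = 0.109) and on leaving out the mouse of P3 litter 1, 2, 3 or 5 or P1 litter 1, 2 or 3 (adjusted p of 0.0592 to 0.146). That of Kif23 was lost without the litter block (adjusted p = 0.145) and on leaving out the mouse of P3 litter 1, 2, 3 or 4 or P1 litter 1, 2 or 3 (adjusted p of 0.0577 to 0.146), and with the P14 arrays left out (adjusted p = 0.0595). Mki67, the usual label of dividing cells, changed by -0.23 ± 0.18, adjusted p = 0.681. The mean over the list ranged from 5.44 to 5.55 in the P3 mice and 5.43 to 6.04 in the P1 mice, so the groups overlapped. Cenpk, a centromere protein (-0.71 ± 0.18, adjusted p = 0.0427), and Chek1, a checkpoint kinase of DNA replication (-0.80 ± 0.17, adjusted p = 0.0157), stand outside that list and were also lower. The call of Cenpk was lost without the litter block (adjusted p = 0.104) and on leaving out the mouse of P3 litter 1, 2, 3 or 5 or P1 litter 2, 3, 4 or 5 (adjusted p of 0.0734 to 0.136). That of Chek1 was lost on leaving out the mouse of P3 litter 5 or P1 litter 2 (adjusted p of 0.0742 to 0.078).

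The other genes among the 14 deepest falls without overlap between the ages were Fxyd6, a modulator of the sodium pump (-1.20 ± 0.23, adjusted p = 0.00553), Stk32b, a kinase (-1.14 ± 0.13, adjusted p = 7.35e-06), Vash2, a tubulin carboxypeptidase (-1.07 ± 0.18, adjusted p = 0.00114), Itga6, a laminin receptor subunit (-0.97 ± 0.14, adjusted p = 0.000173), and Stc1, a secreted glycoprotein (-0.83 ± 0.17, adjusted p = 0.0087). Dok4, Dapk1, Zfp57 and Atp2b4, the last a calcium pump of the plasma membrane, changed by -0.73 ± 0.13, -0.73 ± 0.10, -0.73 ± 0.14 and -0.71 ± 0.14. All 9 kept their calls on leaving out any mouse, but in the fit of the 10 arrays alone only Vash2 and Stc1 of them were called.

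Among matrix genes, 3 of 23 rose and Tnc fell, with a median of 0.07. Hapln4, the link protein Bral2 of perineuronal nets and calyx synapses, measured 5.71, 5.75, 6.04, 6.08 and 5.80 in the P3 mice, against 4.66, 4.75, 4.49, 4.62 and 4.46 in the P1 mice (1.28 ± 0.13, adjusted p = 5.49e-07). It was under the array median in all P1 mice and above it in all P3 mice. Tnr, tenascin-R, which cross-links the same nets, rose by 1.28 ± 0.20, adjusted p = 0.000381. Sparc, a matrix protein of glia that restrains synapse growth, rose by 0.46 ± 0.09, adjusted p = 0.00646. The core proteins of the nets were not called. Bcan changed by 0.40 ± 0.13, adjusted p = 0.137 and Acan by 0.14 ± 0.13, adjusted p = 0.779. The collagens and laminins gave no call among 17, of which 13 lay under the array median at both ages.

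Lists of synapse, receptor and channel genes gave few calls. Lrrtm3, a postsynaptic adhesion protein of excitatory synapses, was the one of 24 adhesion genes called. It measured 8.93, 8.84, 8.75, 9.21 and 8.99 in the P3 mice, against 7.70, 8.03, 8.13, 8.32 and 7.76 in the P1 mice, without overlap (0.95 ± 0.13, adjusted p = 0.000114). Among 13 ionotropic glutamate receptor genes Gria3, an AMPA receptor subunit, rose (0.99 ± 0.17, adjusted p = 0.00159) and Grin2b, the NMDA receptor subunit of young synapses, fell (-0.56 ± 0.14, adjusted p = 0.0342). The call of Grin2b was lost without the litter block (adjusted p = 0.351) and on leaving out the mouse of P3 litter 1, 2, 3 or 5 or P1 litter 2, 3, 4 or 5 (adjusted p of 0.0512 to 0.13). Gria4, the fast AMPA subunit of auditory synapses, changed by -0.02 ± 0.11, adjusted p = 0.977.

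Among 32 synaptic vesicle and release genes Cplx1, complexin 1, which clamps and primes fusion, rose (0.39 ± 0.08, adjusted p = 0.00914). With Slc17a8 it was the only gene called there. In the fit of the 10 arrays alone the call of Cplx1 was lost (adjusted p = 0.171). The values are of RNA in MNTB tissue and were not assigned to the calyx. Syt2, the calcium sensor of the mature calyx, was higher in every P3 mouse than in every P1 mouse. It averaged 7.52 ± 0.29 at P3 and 6.94 ± 0.12 at P1 (SD, n = 5 each), but its adjusted p was 0.0742. Syt1, the sensor of most forebrain terminals, changed by -0.06 ± 0.12, adjusted p = 0.898. Unc13b, a vesicle priming protein, was the one of 13 active zone genes called (-0.50 ± 0.12, adjusted p = 0.0342), with overlapping groups. Its call was lost without the litter block (adjusted p = 0.267) and on leaving out the mouse of P3 litter 1, 3 or 5 or P1 litter 1, 2, 3 or 5 (adjusted p of 0.0747 to 0.141).

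No gene was called among 21 potassium and HCN channel genes, 7 sodium channel genes, 13 voltage-gated calcium channel genes and 14 inhibitory receptor genes and chloride transporters. Their median changes were 0.05, 0.10, -0.17 and 0.16. Kcna2, a low-voltage potassium channel of MNTB neurons, changed by 0.51 ± 0.16, adjusted p = 0.157, Scn1a by 0.55 ± 0.15, adjusted p = 0.0733 and Gabrb2 by 0.80 ± 0.32, adjusted p = 0.293. Glra1, the adult glycine receptor subunit, was dim at both ages (0.27 ± 0.27, adjusted p = 0.778). Of 11 genes of nodes of Ranvier and paranodes Cntnap1, the paranodal protein Caspr, rose (0.78 ± 0.17, adjusted p = 0.0146). Its call was lost without the litter block (adjusted p = 0.0743) and on leaving out the mouse of P3 litter 2 or P1 litter 2 (adjusted p of 0.0515 to 0.0564).

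Signals between cells were called in single genes. Bmp5, a bone morphogenetic protein (BMP) ligand, measured 6.65, 7.47, 7.05, 6.61 and 6.91 in the P3 mice, against 5.23, 6.25, 5.95, 5.30 and 6.22 in the P1 mice (1.15 ± 0.24, adjusted p = 0.0117) and was the one of 37 BMP and TGF-beta genes called. Its call was lost on leaving out the mouse of P1 litter 1 (adjusted p = 0.0562). BMP signalling is known to be needed for calyx growth in mice. Its receptors were not called. Bmpr1b changed by 0.40 ± 0.18, adjusted p = 0.366 and Bmpr1a by -0.10 ± 0.17, adjusted p = 0.895. Bmp4, another ligand, was dim (0.50 ± 0.20, adjusted p = 0.287). Of 46 axon guidance genes Sema5a, a semaphorin, rose (0.75 ± 0.12, adjusted p = 0.000726) and Robo2, a Slit receptor, fell (-0.45 ± 0.11, adjusted p = 0.0409). The call of Robo2 was lost without the litter block (adjusted p = 0.172) and on leaving out the mouse of P3 litter 1, 2, 3 or 5 or P1 litter 1, 2, 3, 4 or 5 (adjusted p of 0.0505 to 0.137). It was also lost after quantile normalization (adjusted p = 0.0595) and with an intensity trend in the variance (adjusted p = 0.0541). Robo3, which controls the midline crossing of calyx axons, was not called (adjusted p = 0.993).

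Among the 14 largest increases without overlap between the ages, Chn2, a regulator of Rac, measured 6.88, 6.62, 7.01, 6.75 and 6.39 in the P3 mice, against 4.29, 5.41, 4.08, 5.53 and 5.22 in the P1 mice (1.82 ± 0.28, adjusted p = 0.000353), and Abhd3, a phospholipase, rose by 1.38 ± 0.26, adjusted p = 0.00361. Smpx, a small muscle protein (1.47 ± 0.35, adjusted p = 0.0292), and Rgs4, a brake on G protein signalling (1.22 ± 0.31, adjusted p = 0.0409), were less steady. The call of Smpx was lost on leaving out the mouse of P3 litter 4 or 5 or P1 litter 2, 4 or 5 (adjusted p of 0.0527 to 0.117). That of Rgs4 was lost without the litter block (adjusted p = 0.0955) and on leaving out the mouse of P3 litter 1, 3, 4 or 5 or P1 litter 1, 2, 3, 4 or 5 (adjusted p of 0.0517 to 0.116). Aldoc, a glycolytic enzyme of astrocytes, was the one of 14 glycolysis genes called (0.46 ± 0.08, adjusted p = 0.000939). Cholesterol synthesis gave no call among 15 genes, with a median of -0.16, and mitochondrial respiration none among 18, with a median of 0.02.

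Beyond the glial and progenitor lists, the lists of other cell types held 1 called gene, Slc17a8, lower at P3 as given above. It was 1 of 12 measured members of the glutamatergic neuron list (median -0.06). Since VGLUT3 is also known from young MNTB neurons, this call is not specific to another cell type. No gene was called in the endothelial (14), pericyte (11), meningeal (14), erythroid (4), ependymal (7), motor (8) and serotonergic (7) lists, and none among 17 immediate-early and heat-shock genes. The medians of these lists lay between 0.01 and 0.09. The mean of the motor and cholinergic list ranged from 3.64 to 3.78 in the P3 mice and 3.57 to 3.68 in the P1 mice, and that of the ependymal list from 3.94 to 4.28 in the P3 mice and 3.98 to 4.39 in the P1 mice, all under the array median. At both ages 10 of 14 meningeal, 3 of 4 erythroid, 5 of 7 serotonergic and 12 of 17 immediate-early and heat-shock genes also lay under it. The same held for 3 of 14 endothelial and 5 of 11 pericyte genes. Changes of such dim genes may be missed. The globin genes Hba-a1, Hba-a2, Hbb-bs and Hbb-bt of the erythroid list were not measured.

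**Figure D2:**
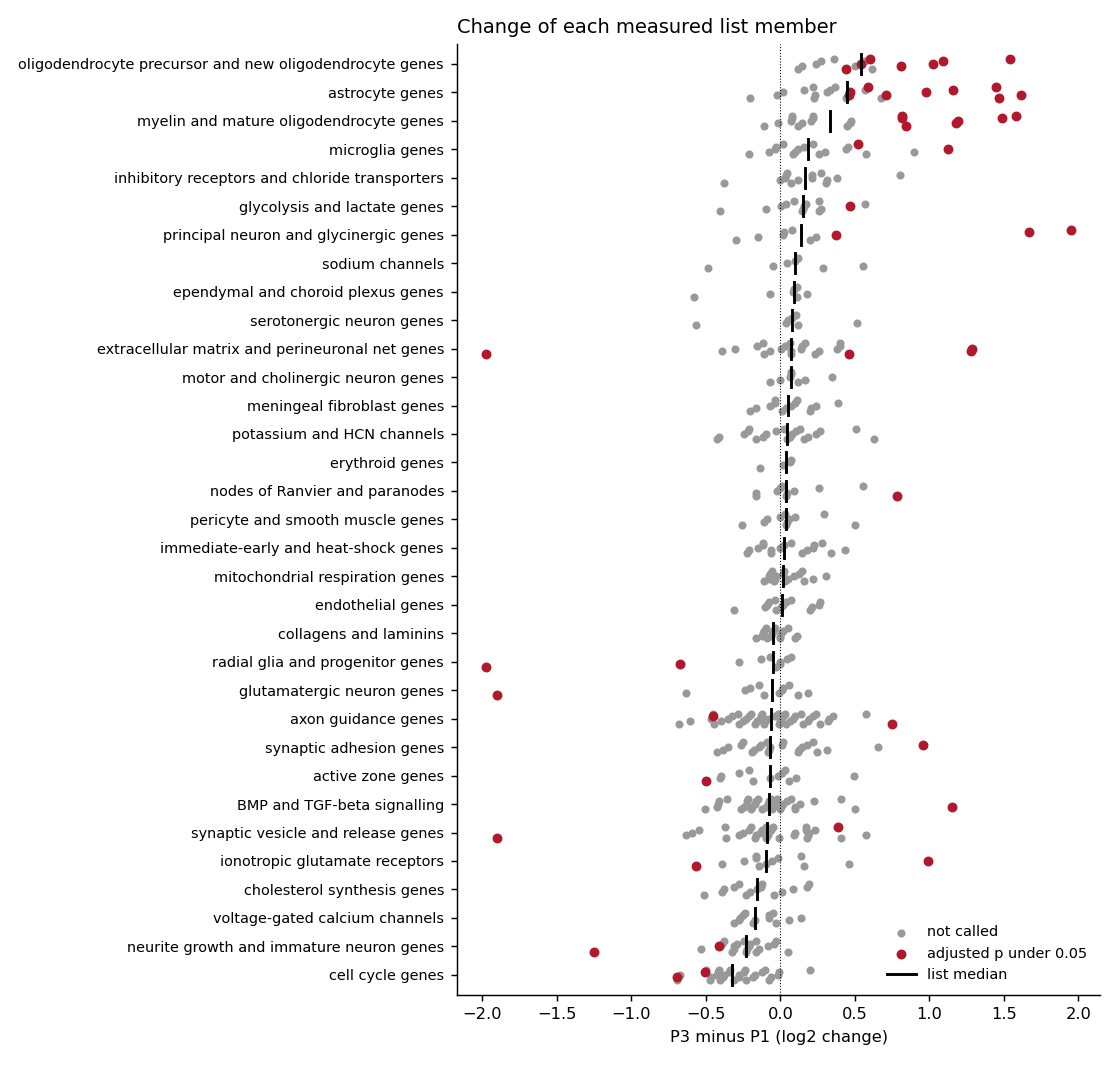
Change from P1 to P3 (horizontal axis, log2, P3 minus P1) of every measured member of 33 gene lists, 1 list per row in order of its median (black bar), with genes at an adjusted p under 0.05 in red and the rest in grey. The precursor, astrocyte and myelin lists lie to the right of 0 with 7, 9 and 7 red points, and the cell cycle list lies to the left with 2.

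The step could be set against the day between. The P2 mice, which were in neither group, had a mean between those of P3 and P1 for 112 of 112 probe sets that rose and 99 of 99 that fell. Over all 16686 probe sets this held for 7656 (45.9%). Since the probe sets were chosen for a gap between P3 and P1, this is a description only. The median of P2 minus P1 was 0.39 for those that rose and the median of P3 minus P2 was 0.39, against -0.29 and -0.30 for those that fell. A test of the second day against the first called 0 probe sets (0%) by limma, with 358 at an unadjusted p under 0.05. By chance a share of about 0.05 of all probe sets passes that level. Pvalb changed by 0.94 on the first day and 1.01 on the second, Tnc by -0.97 and -1.00, and Mbp by 0.74 and 0.85. These steps share the P2 mice and are given as values only.

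The same probe sets were followed in 4 windows that contain no P1 or P3 mouse, although each array was fitted with the same litter numbers. All tests also share 1 estimate of spread for each probe set, to which the P1 and P3 mice contributed. A probe set with a small estimate is more readily called in every window, so the counts called are not independent of the choice. In P2 against P0, where 1.53% of all probe sets were higher and 1.34% lower, 83 of the 112 that rose were also called higher, and the median over the 112 was 0.74. Of the 99 that fell, 35 were also called lower there, and the median over the 99 was -0.36. For the probe sets called lower in other fits the median was -0.21 without the P3 mouse of litter 4, -0.19 with array quality weights, -0.53 without the P1 mouse of litter 2 and -0.53 without the block. In P4 against P2, where 0.27% were higher and 0.132% lower, 33 and 13 were called in the same direction, with medians of 0.52 and -0.35. In P6 against P4, where 0.587% were higher and 0.108% lower, the counts were 27 and 11 and the medians 0.28 and -0.18. The median change of all probe sets was -0.01 in P2 against P0 and 0.00 in the windows of P4 against P2 and P6 against P4.

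Some genes turned later. In P14 against P6, where 16.2% of all probe sets were higher and 6.14% lower, 64 of the 112 rose again and 15 were called lower. Of the 99, 48 fell again and 7 were called higher. Before that, 1 of the 112, Dbpht2, was called lower in P6 against P4, and none of either set was called in the opposite direction in P2 against P0 or P4 against P2. The medians of single litters ran from 0.53 to 0.90 for those that rose and from -0.60 to -0.13 for those that fell in P2 against P0, and from 0.15 to 0.50 and from -0.27 to -0.10 in P6 against P4. P2 is shared by the first 2 of these windows, P4 by both middle ones, and P6 by the last 2, so they are not independent of each other.

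**Figure D3:**
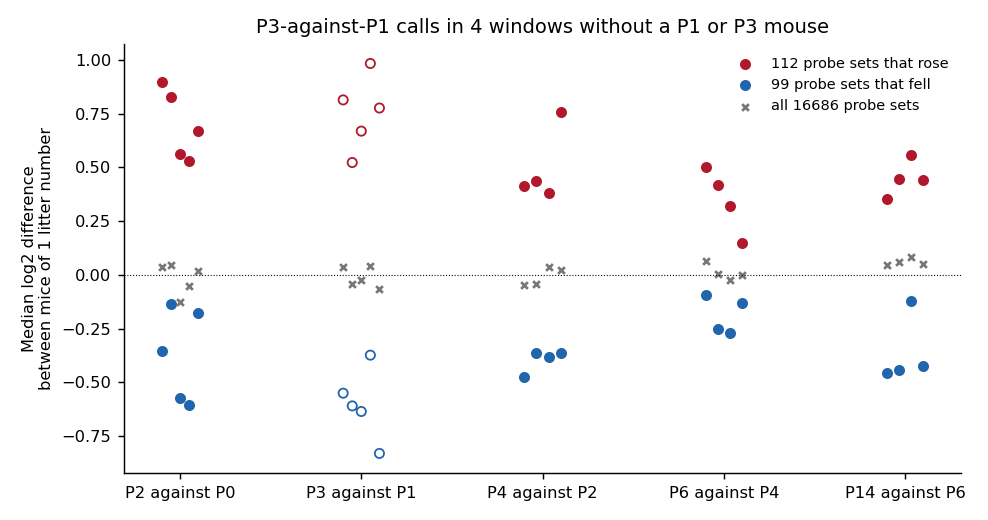
Median log2 difference between the mice of each litter number (vertical axis) for the 112 probe sets that were higher at P3 than at P1 (red), the 99 that were lower (blue) and all 16686 (grey crosses), in 5 windows of age (horizontal axis). Open circles mark the window that chose the probe sets. In the other windows every red point is above 0 and every blue point below 0.

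Whether P1 to P3 differed from a later span of 2 days was tested as the change of P3 against P1 minus that of P6 against P4, which have no mouse in common. It called 9 probe sets as more positive over P1 to P3 (0.0539%) and 22 as more negative (0.132%), with 978 at an unadjusted p under 0.05, a level that a share of about 0.05 of all probe sets passes by chance. Of these 31, 11 were also called in P3 against P1. Without the block 5 were more positive, and the same count was 5 without the P1 mouse of litter 4 and 4 without that of litter 5. The count of more negative ones was 13 without the P1 mouse of litter 5.

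Tnc and Slc17a8 fell more over P1 to P3 than over P4 to P6. Tnc changed by -1.98 over P1 to P3 and 0.01 over P4 to P6, a difference of -1.98 ± 0.26 (SE, adjusted p = 0.000185). Slc17a8 changed by -1.90 over P1 to P3 and 0.09 over P4 to P6, a difference of -1.996 ± 0.30 (SE, adjusted p = 0.000966). Fitted changes carry the litter block and can differ slightly from differences of the means given here, since P4 has 4 mice. Mean Tnc was 8.98 at P0, 8.47 at P1, 7.50 at P2, 6.50 at P3, 6.12 at P4, 6.03 at P6 and 5.44 at P14. Mean Slc17a8 was 8.04 at P0, 6.80 at P1, 5.80 at P2, 4.90 at P3, 4.23 at P4, 4.25 at P6 and 3.90 at P14, and from P4 on it lay under the array median.

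A few genes rose more over P1 to P3 than over P4 to P6. Bcas1 changed by 1.49 over P1 to P3 and 0.31 over P4 to P6, a difference of 1.17 ± 0.20 (SE, adjusted p = 0.00678), and Apoe by 1.16 over P1 to P3 and 0.18 over P4 to P6, a difference of 0.98 ± 0.17 (SE, adjusted p = 0.00678). Mean Apoe was 8.98 at P0, 9.67 at P1, 10.26 at P2, 10.83 at P3, 10.90 at P4, 11.06 at P6 and 11.19 at P14. Hapln4 changed by 1.28 over P1 to P3 and 0.29 over P4 to P6, a difference of 0.99 ± 0.19 (SE, adjusted p = 0.0184). The difference of Hapln4 was not called without the P1 mouse of litter 5 (adjusted p = 0.0557). Pla2g7, a secreted phospholipase, changed by 0.91 over P1 to P3 and -0.06 over P4 to P6, a difference of 0.97 ± 0.19 (SE, adjusted p = 0.0254). Its difference was not called without the block (adjusted p = 0.0709) or without the mouse of P3 litter 4 or P1 litter 1, 3, 4 or 5 (adjusted p up to 0.0609). Dbpht2 was called higher in P3 against P1 and lower in P6 against P4 (adjusted p = 0.0322). It changed by 1.00 over P1 to P3 and -1.07 over P4 to P6, a difference of 2.06 ± 0.34 (SE, adjusted p = 0.00365). Its call in P3 against P1 (1.00 ± 0.23, adjusted p = 0.0236) was lost without the litter block (adjusted p = 0.158) and on leaving out the mouse of P3 litter 1, 3, 4 or 5 or P1 litter 1, 4 or 5 (adjusted p of 0.0506 to 0.0966). With array quality weights it was lost too (adjusted p = 0.0725).

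Of the 20 myelin genes, 7 changed less over P1 to P3 than over P4 to P6 by this test, 1 (Bcas1) changed more, and 12 were not called, with a median difference of -0.60 beside 0.00 over all probe sets. Mag changed by 0.82 over P1 to P3 and 2.44 over P4 to P6, a difference of -1.62 ± 0.24 (SE, adjusted p = 0.000901). Mobp changed by 0.12 over P1 to P3 and 3.61 over P4 to P6, a difference of -3.50 ± 0.23 (SE, adjusted p = 1.94e-10), Ermn by 0.08 over P1 to P3 and 3.02 over P4 to P6, a difference of -2.94 ± 0.19 (SE, adjusted p = 1.94e-10), Mog by -0.11 over P1 to P3 and 2.90 over P4 to P6, a difference of -3.01 ± 0.32 (SE, adjusted p = 3.63e-06) and Mal by 0.20 over P1 to P3 and 1.38 over P4 to P6, a difference of -1.18 ± 0.17 (SE, adjusted p = 0.000879). The last 4, and the further genes of the list given here, were named after their values were seen. Mean Mobp was 4.66 at P0, 4.64 at P1, 4.79 at P2, 4.76 at P3, 6.02 at P4, 9.61 at P6 and 11.59 at P14. Until P3 it lay at or under the array median, where changes may be compressed. The means of Ermn, Mog and Mal at P1 and P3 lay under the array median as well. Trf and Tspan2 were the other 2 of the 7 (-1.56, adjusted p = 0.00555 and -1.64, adjusted p = 0.0286), and the call of Tspan2 was lost without the block and without some mice (adjusted p up to 0.0836). Cnp (-0.09, adjusted p = 0.992), Ugt8a (-0.72, adjusted p = 0.745), Fa2h (-0.26, adjusted p = 0.974) and Sirt2 (0.26, adjusted p = 0.924), which rose by P3, were among the 12. Mbp changed by 1.58 and 1.19, and the difference did not pass the test (0.39 ± 0.20, adjusted p = 0.865). Pvalb also changed in both spans, by 1.95 and 1.28, with a difference of 0.67 ± 0.26 (adjusted p = 0.7).

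**Figure D4:**
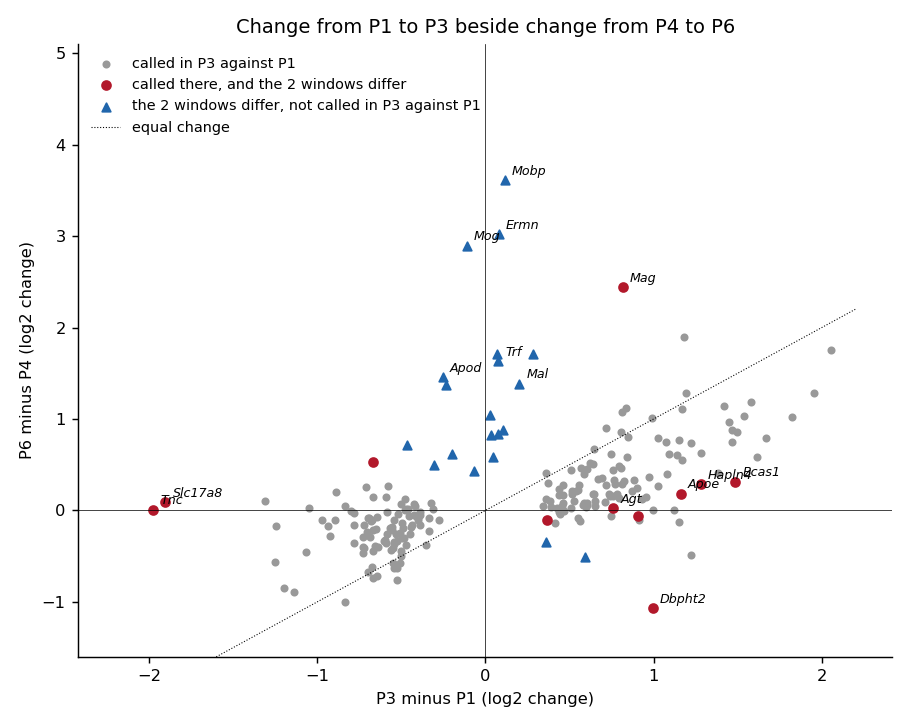
Change from P1 to P3 (horizontal axis) beside change from P4 to P6 (vertical axis), both log2, for probe sets called in P3 against P1 (grey), those of them whose changes in the 2 windows differed (red) and others whose changes differed (blue triangles). Tnc and Slc17a8 lie near 0 on the vertical axis, and Mobp, Ermn and Mog near 0 on the horizontal one.

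**Figure D5:**
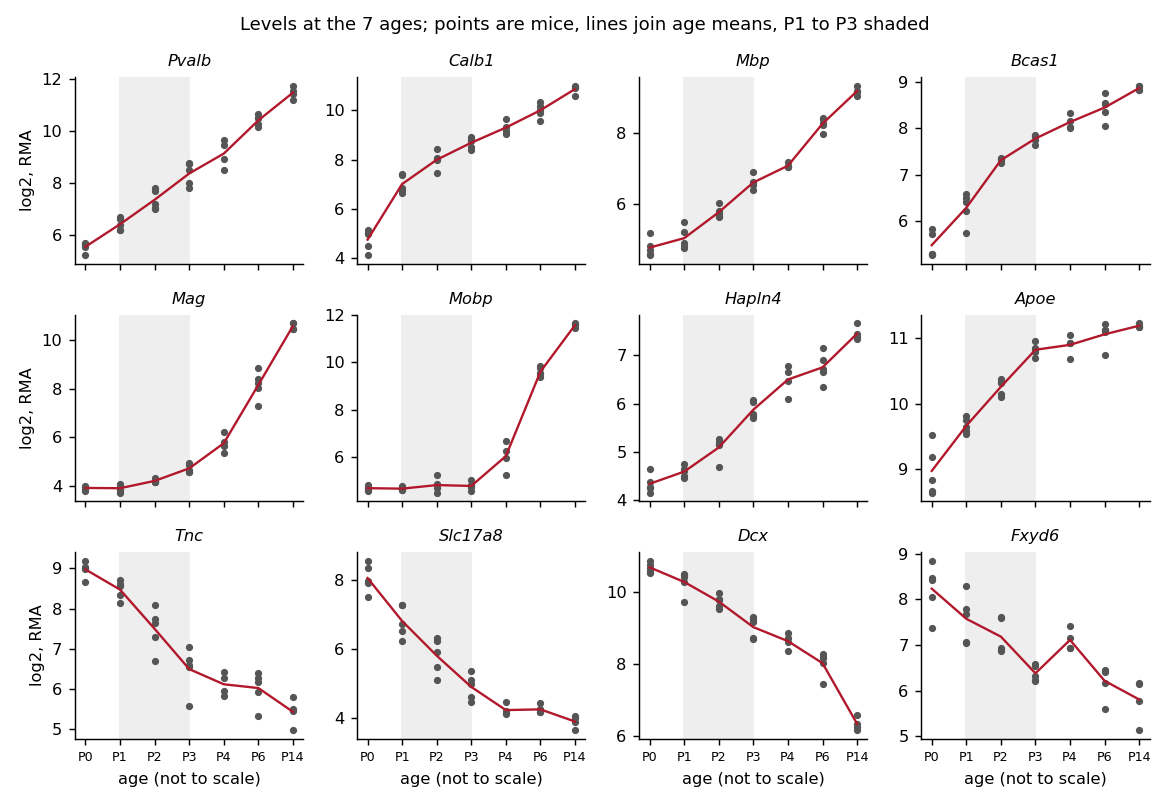
Log2 expression (vertical axes) of 12 genes at the 7 ages (horizontal axis, not to scale), with a point for each mouse, a line through the age means and the span from P1 to P3 shaded. The means of Pvalb, Calb1 and Mbp are higher at each age than at the one before, those of Apoe and Bcas1 climb mostly by P3, those of Mag and Mobp mostly after it, and those of Tnc and Slc17a8 drop mostly by P3.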

How the data were processed

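Each array held MNTB tissue of 1 mouse, and 33 arrays covered 7 ages. Per array, the authors deposited 16686 log2 values, 1 for each probe set, made with RMA in Partek 6.3 against mm9, per the submitters' processing notes. The settings of RMA were not given in the sources used here. RNA was amplified before labelling, per the labels' protocols, which can add spread between arrays. RMA brings arrays to a common scale, so a change shared by most genes would not show, and arrays give no read depth, so their number limits the precision.

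Symbols came from the platform annotation, updated through Entrez numbers to RefSeq GRCm38.p6. Of the probe sets, 14993 had 1 symbol, 1019 several and 674 none, and in lists a gene was represented by its brightest probe set. A linear model with 7 age means and the litter number as a fixed block was fitted with limma 3.58.1 (R 4.3.3) to the deposited log2 values of all 33 arrays. Tests were two-sided, with p-values adjusted by Benjamini-Hochberg across every probe set and a threshold of 0.05. No probe set was filtered out. The fit was tested on simulated data.

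The litter numbers come from the titles, which do not say what they share. Deviations of P3 and P1 mice of the same number correlated at -0.05 to 0.28, 1 of 5 pairs was over 0.1, and 1 of 5 P3 mice correlated best with its own number. Over all ages, 36 of 94 same-number pairs were over 0.1 and 25 below 0 (-0.32 to 0.65), and the median of each number was above 0, at 0.02 to 0.16, with single pairs of litter 4 highest. Whether the same number at different ages means the same litter is not stated by the titles, and these correlations do not settle it. The block was kept because the comparison is defined with it. Results that change without it are given both ways for the totals, the genes taken by the rule for named genes and those outside the lists. The counts called in each list, and the P3 against P1 calls of list members beyond that rule, are given with the block only.

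The comparison, the 33 gene lists and the rule for named genes were chosen with earlier results of these data known. The rule takes called genes whose P3 and P1 mice do not overlap (the 14 largest increases and the 14 largest decreases), up to 4 called members of each list, up to 5 genes in each direction of the contrast between windows, and 13 genes always given. In all 60 genes were named so, of which 55 were called. The 18 alternatives covered the block, the arrays fitted, normalization, a filter on dim probe sets, quality weights, an intensity trend and each of the 10 mice left out.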

Additional observations from a re-analysis of the deposited data

Results flagged for a closer look

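In 12 of 120 groups of 5 mice, 2 for each named gene, the highest or lowest mouse stood apart from the others, with a gap over range above Dixon's critical value of 0.71, which chance exceeds in about 1 group in 20. In 6 of these the mouse was that of P1 litter 4. It was lowest for Abhd3 (5.80, next 7.19, ratio 0.734), Rgs4 (3.68, next 4.74, ratio 0.900), Sparc (10.07, next 10.32, ratio 0.797), Unc13b (5.72, next 6.50, ratio 0.712) and Dcx (9.71, next 10.26, ratio 0.711), and highest for Glra1 (5.11, next 4.06, ratio 0.774). Among P1 mice litter 1 was also highest for Gpr37l1 (5.25, next 4.75, ratio 0.830) and litter 3 lowest for Cnp (4.90, next 5.46, ratio 0.724). Among P3 mice litter 1 was highest for Sparc (11.04, next 10.76, ratio 0.729), and the lowest were litter 3 for Gria3 (6.80, next 7.18, ratio 0.730), litter 5 for Pla2g7 (8.77, next 9.09, ratio 0.855) and litter 4 for Kif23 (4.26, next 4.66, ratio 0.754).

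The change of P3 against P1 differed from that of P6 against P4, by limma's test of the difference, for 8 named genes. The difference was 2.06 for Dbpht2, 1.17 for Bcas1, 0.99 for Hapln4, 0.98 for Apoe and 0.97 for Pla2g7, which were more positive over P1 to P3. It was -1.996 for Slc17a8, -1.98 for Tnc and -1.62 for Mag, which were more negative.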

How the results depend on the processing

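The 112 increases and 99 decreases varied between settings. With limma fitted to the 10 arrays alone 24 probe sets were higher and 9 lower, and with array quality weights 181 and 296. Quantile normalization gave 220 higher, and centring arrays on their median gave 154 lower. The share of calls that were increases was 53.1%, against 61.3% after quantile normalization, 51.9% after median centring and 37.9% with quality weights. Leaving out each mouse gave 79 to 110 higher and 38 to 240 lower. Without the litter block 76 were higher and 43 lower, and 13 of the 55 called named genes were no longer called. The windows contrast had 9 more positive and 22 more negative calls. There were 5 more positive without the block, 20 and 34 after quantile normalization, 18 and 67 with weights, and 4 to 8 and 13 to 31 on leaving out a mouse. The median P2 against P0 change of those that rose was 0.743, and 0.569 after quantile normalization. The median P4 against P2 change of those that fell was -0.351, -0.415 without the block, -0.273 with weights and -0.482 to -0.293 without a mouse. No called named gene changed sign in any of the 18 alternatives, but for several of them this was fixed in advance. Leaving out the block or the P14 arrays, fitting the 10 arrays alone or adding the intensity trend keeps the estimated change as it is. Those fits alter its error only. Many named genes were also chosen for a gap between the ages, which leaves little room for a change of sign without 1 mouse. In the fit of 10 arrays, which has fewer arrays to estimate the spread, 33 of those 55 were no longer called. The cause of this loss and of the other shifts was not tested. The number of arrays and dim values near the array median may both limit what could be called.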

Other observations

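Genes outside the lists also passed the test, and those given here were named after their values were seen. Both polysialyltransferases, St8sia4 (-0.92 ± 0.21, adjusted p = 0.0212) and St8sia2 (-0.52 ± 0.12, adjusted p = 0.0174), which add polysialic acid to the neural cell adhesion molecule in young tissue, fell. So did adhesion molecules of the immunoglobulin superfamily on neurons, Cntn4 (-0.90 ± 0.18, adjusted p = 0.0056) and Cntn6 (-0.78 ± 0.16, adjusted p = 0.0104). The call of St8sia4 was lost without the block (adjusted p = 0.0518) and on leaving out 6 of the 10 mice in turn (up to 0.0831), that of St8sia2 without the mouse of P3 litter 2 or 3 or P1 litter 2 (up to 0.0813), and that of Cntn6 without the block (adjusted p = 0.0648) and without the mouse of P3 litter 5 or P1 litter 5 (up to 0.0581). The other genes named here kept their calls in those fits. Crabp2, a carrier of retinoic acid, fell by 1.31, and Aldh1a1, an enzyme that makes it, rose (1.14 ± 0.16, adjusted p = 0.000151).

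Further glial genes rose. Slc14a1, a urea transporter, changed by 1.17 ± 0.19, adjusted p = 0.000939, and Agt, angiotensinogen of astrocytes, by 0.76 ± 0.09, adjusted p = 9.38e-06. Of genes known from oligodendrocytes, Gjc3, a connexin, changed by 1.17 ± 0.19, adjusted p = 0.000982, Omg, the oligodendrocyte myelin glycoprotein, by 1.08 ± 0.18, adjusted p = 0.000828, and Pllp, plasmolipin, by 0.72 ± 0.14, adjusted p = 0.00506. Nefh, the heavy neurofilament subunit of thick axons, rose by 0.64 ± 0.10, adjusted p = 0.000642.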
